A study of Rattus norvegicus with 6 samples.

Results

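The genes described here are the Aurora kinases *Aurka*, *Aurkb* and *Aurkc*, the other subunits of the chromosomal passenger complex *Incenp*, *Birc5* and *Cdca8*, the Polo kinases *Plk1*, *Plk2* and *Plk3*, and the Aurora A cofactor *Bora*. They were matched by name to the gene names of the array files, and all 10 of the 10 listed names were found among 36174 names. Expression was measured in replicating and quiescent β-cells of young adult male Wistar rats, with 3 arrays per group. Islets were kept overnight after isolation in culture medium with EdU, a thymidine analogue taken up during DNA synthesis, and were then dispersed, stained with the zinc dye Newport Green and fixed in paraformaldehyde. Cells of high forward scatter, high side scatter and high Newport Green emission were sorted into EdU+ cells, called replicating, and EdU- cells, called quiescent. Each of the 3 islet preparations pooled 4 rats and gave 1 sample of each group, so both groups shared the strain, sex, culture, EdU exposure and fixation, and a comparison within a preparation was a comparison of cells of the same animals. The EdU gate records DNA synthesis during the labelling period and not the phase a cell was in when it was sorted.

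Aurora and Polo kinases are serine/threonine kinases of cell division. Aurora A acts at centrosomes and spindle poles, and with Bora, which binds Plk1, it phosphorylates and activates Plk1 before mitosis. Aurora B is held by Incenp, survivin (the product of *Birc5*) and borealin (the product of *Cdca8*) at centromeres and later at the spindle midzone, where it corrects faulty kinetochore attachments and acts in cytokinesis, while Aurora C can take its place in germ cells. Plk1 acts at mitotic entry, in spindle assembly and in cytokinesis, whereas Plk2 and Plk3 are known mainly as kinases of early growth response and stress. Adult β-cells divide rarely, and their division uses this machinery.

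Of the 10 genes, 7 were higher in replicating β-cells and none was lower, where a call needed an unadjusted p of at most 0.05 in limma and a log2 ratio of at least 1 in size, the selection that the study itself used. Over all 45598 probes, 4.44% were called higher and 4.18% lower by the same rule. The genes that rose were *Plk1*, *Aurka*, *Bora*, *Cdca8*, *Aurkb*, *Incenp* and *Plk2*, from 34.7-fold for *Plk1* to 4.25-fold for *Plk2*. *Plk3*, *Aurkc* and *Birc5* were not called. No probe of the array passed an adjusted p of 0.05 in limma, although 4379 (9.6%) had an unadjusted p under 0.05, and the adjusted p of these genes ran from 0.120 to 0.664, so the calls rest on the size of the ratio and on its unadjusted p.

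In 8 of the 10 genes the lowest replicating array lay above the highest quiescent array, which was so for 9.01% of 44652 probes with a value on every array, and for no gene was the order the reverse (7.1% of probes). The ratio was above 0 in all 3 preparations for 8 genes, against 15.7% of probes. The median log2 ratio of the 10 genes was 2.81, against -0.07 over all probes. By preparation the median was 3.22, 2.62 and 2.27. A ratio here is the normalized log2 value of the replicating sample minus that of the quiescent sample, and of several probes for a gene, the one brightest over the 6 arrays was used. In sorted cells measured in bulk, a smaller number of cells that express a gene and less of its RNA per cell cannot be told apart.

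Some features of the arrays bear on these values. The quiescent array of preparation 2 stood furthest apart: it correlated with the other quiescent arrays with an r of 0.830 and 0.654. It lay at least 2 log2 units above all other arrays on 2188 of 44652 probes (4.9%), against 0 to 4 probes for any other array. It also had 1583 outlier spots, against 252 to 299 on the other arrays. The r of quiescent array 1 was 0.867 with quiescent array 3 and 0.869 to 0.887 with the replicating arrays. That of quiescent array 3 with the replicating arrays was 0.943 to 0.969. Across probes, the ratios correlated with an r of 0.630 between preparations 1 and 2, 0.164 between 1 and 3 and 0.0167 between 2 and 3. Without preparation 2 the number of the 10 genes called higher was still 7, with log2 ratios from 2.16 for *Plk2* to 4.57 for *Plk1*. All 10 β-cell markers were well above background on all 6 arrays. Their summed log2 level was 17.9 to 18.3 in replicating and 17.2 to 18.4 in quiescent samples, a sum in which the insulin genes weigh most. By gene, 3 of the 10 had a ratio above 0, the median was -0.58, the replicating values of 4 lay below all quiescent ones, and *Mafa*, a transcription factor of mature β-cells, was called lower on its brightest probe. Markers of other cells were higher in the replicating samples for 2 of 6 α-cell, 2 of 3 δ-cell, 1 of 1 PP-cell, 4 of 10 fibroblast and stellate, 3 of 6 immune and 1 of 6 acinar genes, and for 0 of 5 endothelial and 0 of 4 duct genes. The summed log2 level was 14.5 to 16.5 against 12.5 to 14.1 for the α-cell list, 10.4 to 11.0 against 8.64 to 10.2 for the δ-cell list, 11.9 to 12.9 against 10.7 to 11.6 for the PP-cell gene, 13.8 to 15.3 against 12.3 to 12.7 for the fibroblast and stellate list, 12.4 to 12.7 against 11.5 to 12.5 for the immune list and 12.8 to 16.3 against 11.8 to 15.3 for the acinar list, with the endothelial (11.5 to 12.9 against 12.0 to 13.1) and duct lists (14.5 to 14.8 against 14.7 to 15.3) no higher. In such sums the brightest genes weigh most, such as *Gcg* in the α-cell list. By gene, 4 of 5 endothelial ratios were above 0 (median 0.64), against 5 of 6 for the α-cell list (median 0.82) and 0 of 4 for the duct list (median -0.33). The endothelial gene *Cdh5* read 12.93 on the quiescent array of preparation 2. The part of these other cells in the ratios below was not tested.

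**Figure D1:**
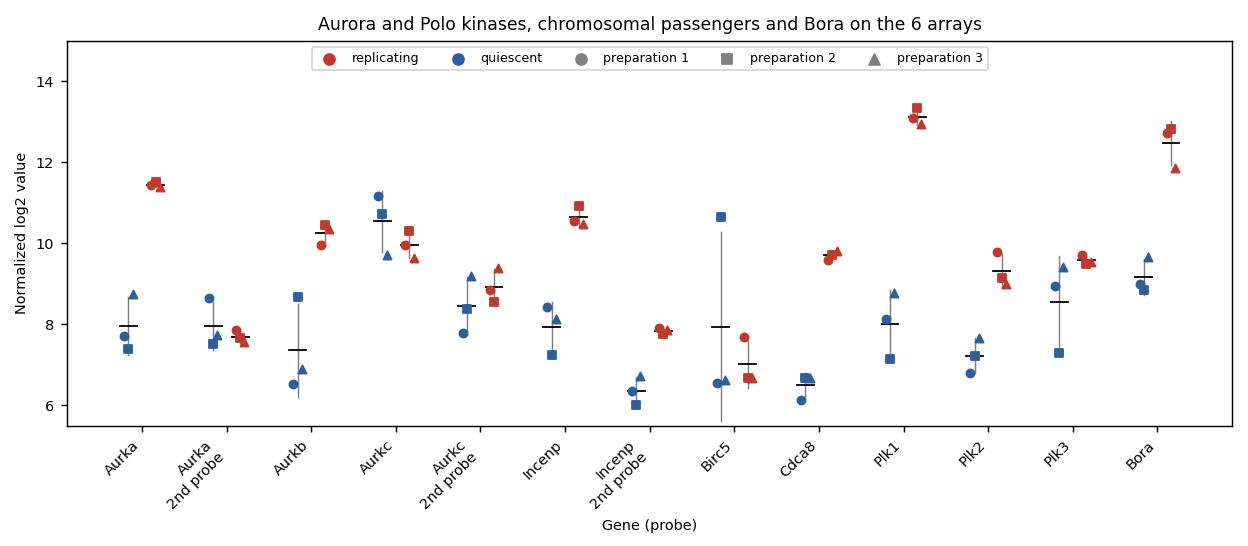
Normalized log2 value (y axis) of each probe of the 10 genes (x axis) on the 6 arrays, with replicating samples in red, quiescent samples in blue and a marker shape for each preparation; black bars are group means and grey lines the SD (n = 3). The replicating values of *Plk1* lie between 12.95 and 13.35 and the quiescent values between 7.14 and 8.78, while the quiescent value of *Birc5* in preparation 2, at 10.64, lies above all its other values.

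The promoters of these genes are shown because 4 of them carry the same short element, and *Plk2* carries another. The sequences are those of RefSeq on GRCr8, from 250 bases before to 50 after the start of the gene, on the strand of the gene, and 8 of the 10 genes had one. *Aurkb* and *Incenp* had no entry. Capitals mark matches, on either strand, to TTTGAA, known as the cell-cycle genes homology region, its variant TTCGAA, the CCAAT box and TGACGTCA, the cyclic AMP response element. These letters were chosen after the promoters had been seen.
Plk1, chr1:186147408-186147707, plus strand: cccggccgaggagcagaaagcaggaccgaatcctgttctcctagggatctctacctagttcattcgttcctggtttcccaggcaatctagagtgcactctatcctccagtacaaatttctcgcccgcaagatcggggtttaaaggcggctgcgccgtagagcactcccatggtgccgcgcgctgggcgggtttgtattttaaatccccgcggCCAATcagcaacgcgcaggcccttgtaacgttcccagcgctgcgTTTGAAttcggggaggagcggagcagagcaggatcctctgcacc
Cdca8, chr5:142483150-142483449, minus strand: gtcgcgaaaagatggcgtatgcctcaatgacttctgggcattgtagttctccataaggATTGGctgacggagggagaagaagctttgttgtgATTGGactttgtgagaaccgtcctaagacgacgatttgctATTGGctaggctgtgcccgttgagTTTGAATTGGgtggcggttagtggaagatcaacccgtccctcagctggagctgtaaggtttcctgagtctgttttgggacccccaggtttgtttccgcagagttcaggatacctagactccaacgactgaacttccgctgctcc
Birc5, chr10:103571896-103572195, plus strand: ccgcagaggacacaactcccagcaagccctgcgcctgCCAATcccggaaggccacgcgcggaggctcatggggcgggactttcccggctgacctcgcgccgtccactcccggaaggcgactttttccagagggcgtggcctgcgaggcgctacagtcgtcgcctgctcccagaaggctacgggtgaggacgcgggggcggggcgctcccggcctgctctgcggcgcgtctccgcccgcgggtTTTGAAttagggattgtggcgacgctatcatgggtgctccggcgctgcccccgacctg
Bora, chr15:82205470-82205769, plus strand: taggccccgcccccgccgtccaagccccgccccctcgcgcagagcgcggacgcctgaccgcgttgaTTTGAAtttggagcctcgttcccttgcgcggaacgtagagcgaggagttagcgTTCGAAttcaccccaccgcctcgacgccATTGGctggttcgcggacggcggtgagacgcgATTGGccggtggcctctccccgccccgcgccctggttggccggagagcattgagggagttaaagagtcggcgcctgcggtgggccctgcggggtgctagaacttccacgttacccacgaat
Plk2, chr2:43702286-43702585, plus strand: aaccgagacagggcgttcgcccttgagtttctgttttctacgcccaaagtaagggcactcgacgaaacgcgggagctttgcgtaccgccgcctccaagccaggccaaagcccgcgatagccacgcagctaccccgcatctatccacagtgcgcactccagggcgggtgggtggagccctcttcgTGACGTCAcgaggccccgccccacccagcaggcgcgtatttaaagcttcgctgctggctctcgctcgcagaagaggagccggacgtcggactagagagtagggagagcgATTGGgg

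TTTGAA lay at bases 7 to 12 of *Plk1*, -94 to -89 of *Cdca8*, -8 to -3 of *Birc5* and -184 to -179 of *Bora*, counted from the gene start. It was present in 18.3% of all 33465 promoters of the table. *Bora* also held TTCGAA at -131 to -126 (1.69% of all promoters). A CCAAT box was found in 6 of the 8 promoters, against 37.5% of all, and *Cdca8* held 4, of which the one at -89 to -85 shares a base with its TTTGAA. TGACGTCA was found at -66 to -59 of *Plk2* and in no other of the 8, against 1.83% of all promoters. The windows of *Aurka* and *Plk3* held none of these letters. The window of *Aurka* was set by the listed start of the gene, and whether transcription starts there was not tested. The lack of these letters in it therefore does not show that the *Aurka* promoter lacks them. *Birc5*, which was not called and whose probe gave little signal on most arrays, carried the element that the called genes *Plk1*, *Cdca8* and *Bora* carried. Of the partner genes described below, 12 of the 20 called higher and 5 of the 21 not called that had a promoter held TTTGAA. The CCAAT box was in 9 of the 20 and 9 of the 21, TTCGAA in 3 and 2, and TGACGTCA in 2 and 1. Whether any of these letters bears on the ratios was not tested.

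*Aurka*, which encodes the spindle pole kinase Aurora A, was 11.3-fold higher in RNA of replicating β-cells. Its brightest probe (rn4 chr3:163271264-163271323, minus strand) read 11.43, 11.51 and 11.39 in replicating samples of preparations 1, 2 and 3, and 7.71, 7.39 and 8.76 in quiescent samples. The replicating values lay within a narrow band and far above the quiescent ones, without overlap. The log2 ratio was 3.50 (SE 0.41, 95% interval 2.45 to 4.54, adjusted p = 0.173, limma). A second *Aurka* probe (chr3:163267842-163267901), which the array files tie to predicted variants of the transcript, did not share this difference: it read 7.85, 7.67 and 7.55 in replicating and 8.64, 7.51 and 7.73 in quiescent samples, with a log2 ratio of -0.27 (SE 0.35, adjusted p = 0.716, limma). With the median over both probes in place of the brightest, the log2 ratio of *Aurka* was 1.61, and the call held.

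*Aurkb*, the catalytic subunit of the chromosomal passenger complex, was 7.44-fold higher. Its single probe (chr10:55801393-55801534, plus strand) spans 142 bases of the genome with 60 bases of sequence, so it crosses a gap in the alignment. It read 9.96, 10.45 and 10.35 in replicating and 6.52, 8.67 and 6.89 in quiescent samples. The groups did not overlap, but the quiescent sample of preparation 2 stood above the other quiescent samples, and the ratio was lowest there (1.79, against 3.44 and 3.46). The fitted log2 ratio was 2.90 (SE 0.46, 95% interval 1.73 to 4.07, adjusted p = 0.298, limma).

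*Aurkc*, known mainly from germ cells, was not called. Its brightest probe (chr1:65242090-65242149, minus strand) read 9.97, 10.29 and 9.65 in replicating and 11.18, 10.72 and 9.72 in quiescent samples, and the groups overlapped. The log2 ratio was -0.57 (SE 0.37, 95% interval -1.51 to 0.37, adjusted p = 0.509, limma). A second probe under the name *Aurkc* (chr1:65242809-65242868), taken from an expressed sequence tag, lies on the plus strand, opposite to the gene in the RefSeq table, and its sequence is given for that reason. Since double-stranded cDNA was labelled, the arrays do not tell from which strand a transcript came.
Second Aurkc probe: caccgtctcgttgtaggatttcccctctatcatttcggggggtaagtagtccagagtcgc
This probe read 8.84, 8.56 and 9.40 in replicating and 7.78, 8.37 and 9.19 in quiescent samples. Its log2 ratio was 0.48 (SE 0.35, adjusted p = 0.535, limma), with overlapping groups, so neither probe gave a call, and the signs of the estimates differed.

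Among the other subunits of the chromosomal passenger complex, *Incenp* and *Cdca8* rose and *Birc5* was not called. *Incenp*, the scaffold that binds and activates Aurora B, read 10.55, 10.93 and 10.49 in replicating and 8.42, 7.25 and 8.14 in quiescent samples on its brightest probe (chr1:212326920-212326979, minus strand). The groups were far apart, with a log2 ratio of 2.72 (SE 0.43, 6.59-fold, adjusted p = 0.293, limma). The second *Incenp* probe (chr1:212324140-212324199) read 7.91, 7.75 and 7.87 against 6.35, 6.01 and 6.71, and it was called too, with a smaller log2 ratio of 1.49 (SE 0.32, 2.80-fold, adjusted p = 0.475, limma).

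*Cdca8*, which encodes borealin, was the most even of the 10 genes across preparations, with ratios of 3.44, 3.04 and 3.15. Its probe (chr5:144267867-144267926, minus strand) read 9.58, 9.72 and 9.81 in replicating and 6.14, 6.68 and 6.67 in quiescent samples. The values of each group lay close together and the groups were well separated. The quiescent values lay near the lowest signal well above background on their arrays (6.04, 5.91 and 6.31). There the ratio depends on the background offset. With a normexp offset of 0 it was 4.53, and with the processed signal 4.25 (SE 0.87), above *Aurka* in both (3.87 and 3.45). For the deposited values the log2 ratio was 3.21 (SE 0.31, 95% interval 2.42 to 4.00, 9.27-fold, adjusted p = 0.120, limma).

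*Birc5*, which encodes survivin, was measured by 1 probe that has no rn4 position in the array files. It read 7.68, 6.67 and 6.68 in replicating and 6.55, 10.64 and 6.63 in quiescent samples. All values were well above background, but apart from 7.68 and 10.64 they lay near the lowest such signal on their arrays. That signal was 6.53 and 6.25 for replicating samples 2 and 3, and 6.04 and 6.31 for quiescent samples 1 and 3. The median of each array was 8.32. The lack of a call therefore does not show that *Birc5* RNA was unchanged. The groups overlapped, and the quiescent sample of preparation 2 was 2.96 log2 units above the next highest value. The fitted log2 ratio was -0.93 with a wide 95% interval of -3.51 to 1.66 (adjusted p = 0.664, limma). Without preparation 2 it was 0.59 (adjusted p = 0.945, limma), so 1 array set the sign of the estimate. That array is the one that stood furthest apart over all probes.

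*Plk1* had the largest ratio of the 10 genes and ranked 7 of all 45598 probes. It was measured by 10 spots of 1 probe (chr1:181012641-181012700, plus strand), whose SD within an array was 0.103 to 0.189 log2 units. The mean over the spots was 13.08, 13.35 and 12.95 in replicating and 8.12, 7.14 and 8.78 in quiescent samples. No replicating value came near a quiescent one, and the ratios of 4.96, 6.21 and 4.17 were large in each preparation. The fitted log2 ratio was 5.12 (SE 0.48, 95% interval 3.90 to 6.33, 34.7-fold, adjusted p = 0.120, limma).

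*Bora*, the cofactor with which Aurora A activates Plk1, was 9.87-fold higher. Its probe (chr15:82851972-82852031, plus strand) read 12.73, 12.82 and 11.85 in replicating and 8.98, 8.85 and 9.66 in quiescent samples. The groups did not overlap, and the difference was smallest in preparation 3 (2.19, against 3.75 and 3.97). The log2 ratio was 3.30 (SE 0.46, 95% interval 2.13 to 4.48, adjusted p = 0.226, limma).

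The stress-responsive kinases *Plk2* and *Plk3* showed smaller ratios. *Plk2* read 9.78, 9.15 and 8.98 in replicating and 6.79, 7.21 and 7.66 in quiescent samples (chr2:41805560-41805752, plus strand). The groups did not overlap, with a log2 ratio of 2.09 (SE 0.43, 95% interval 1.00 to 3.17, adjusted p = 0.475, limma). *Plk3* read 9.70, 9.50 and 9.54 in replicating and 8.96, 7.30 and 9.42 in quiescent samples (chr5:137444034-137444203, minus strand). Its groups did not overlap either, but the ratio ranged from 0.12 in preparation 3 to 2.20 in preparation 2, and the log2 ratio of 1.02 was not called (SE 0.49, 95% interval -0.22 to 2.27, adjusted p = 0.475, limma). Without preparation 3 the ratio of *Plk3* was 1.47 and was called (adjusted p = 0.203, limma), and without preparation 2 it was 0.43.

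The probes of these kinases were alike in sequence, which matters for how far their values are separate. Aligned without gaps, 36 of 48 overlapping bases (75%) were identical, shown in capitals, whereas no other pair of probes of the 10 genes exceeded 51.5%.
Plk2 probe: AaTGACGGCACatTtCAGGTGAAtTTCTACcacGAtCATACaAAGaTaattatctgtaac
Plk3 probe: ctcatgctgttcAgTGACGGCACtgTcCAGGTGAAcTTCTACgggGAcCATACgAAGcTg
Whether either probe takes up transcripts of the other gene was not tested.

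**Figure D2:**
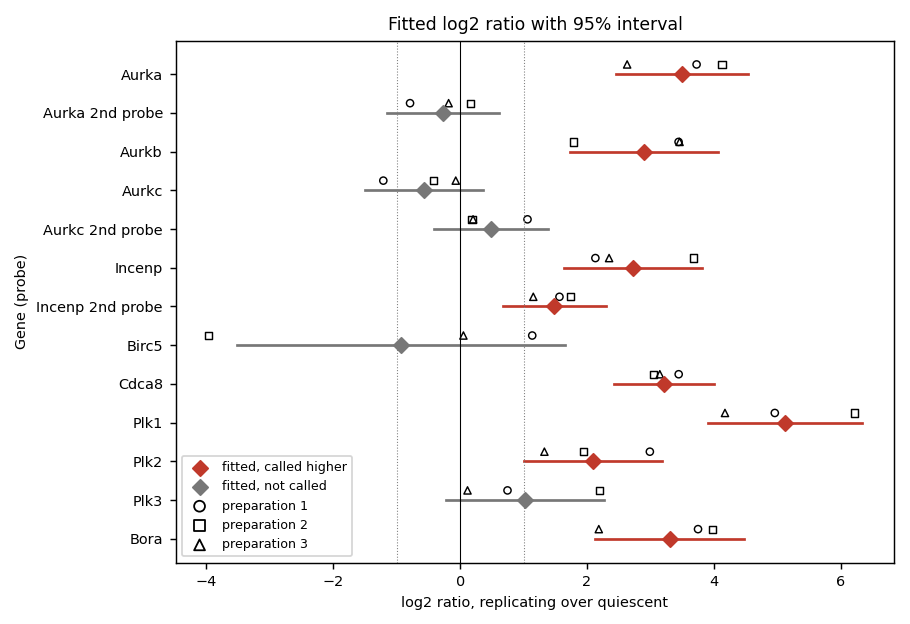
Fitted log2 ratio of replicating over quiescent samples (x axis) for each probe of the 10 genes (y axis), with its 95% interval from limma, in red where called; open symbols are the ratios of the 3 preparations and dotted lines mark a log2 ratio of 1 in either direction. The intervals of 8 red probes, which belong to 7 genes, lie above 0, and the interval of *Birc5* runs from -3.51 to 1.66.

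In order of log2 ratio the genes were *Plk1* (5.12), *Aurka* (3.50), *Bora* (3.30), *Cdca8* (3.21), *Aurkb* (2.90), *Incenp* (2.72), *Plk2* (2.09), *Plk3* (1.02), *Aurkc* (-0.57) and *Birc5* (-0.93). The 95% intervals of neighbours in this order overlapped throughout, and differences between the genes were not tested. The rank among all probes was 7 for *Plk1*, 62 for *Aurka*, 80 for *Bora*, 92 for *Cdca8*, 132 for *Aurkb*, 164 for *Incenp* and 366 for *Plk2*, so that each of these 7 genes lay within the top 0.803% of probes. *Plk3* ranked 3849, within the top 8.44%.

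Genes that act with these kinases were followed through a list of 50 names sorted by role, drawn up with earlier results of these data known, of which 49 were on the array. Of these 49 genes, 27 were higher in replicating β-cells and none was lower, and their median log2 ratio was 1.47 (1.65, 2.06 and 2.01 by preparation). All 6 genes of centromere recruitment rose. They include *Bub1* (4.72), the kinase that marks centromeric histone H2A, *Cdk1* (4.38), the kinase that drives entry into mitosis, the histone H3 kinase *Haspin* (2.98) and the centromere guardian *Sgo1* (1.29). Of the substrates and partners of Aurora B, 6 of 9 rose, with *Ndc80*, the microtubule-binding kinetochore protein, at 5.60 and the microtubule destabilizer *Stmn1* at 3.27. The midzone kinesins *Kif20a* (0.91, adjusted p = 0.502, limma) and *Kif23* (0.83, adjusted p = 0.493, limma), which act at the central spindle, were not called. By preparation their ratios were 1.03, -0.46 and 2.17 for *Kif20a* and 0.42, 0.06 and 2.01 for *Kif23*. *Sgo2* and the brightest probe of *Racgap1*, both counted among the genes that rose, had no value on the quiescent array of preparation 2. Other probes of *Racgap1* had all values and were called at 2.28 and 2.68.

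Of the substrates and partners of Plk1, 7 of 9 rose. *Prc1*, the midzone bundling protein, had a log2 ratio of 3.94. *Ect2*, the exchange factor that starts cytokinesis, read 9.98, 9.61 and 9.73 in replicating samples and had no quiescent array on which its signal was well above background, so it was at least 12.7-fold higher against the lowest signal that was well above background there. The phosphatases *Cdc25b* (0.52) and *Cdc25c* (0.85), which activate Cdk1, were not called. Among partners of Aurora A only *Tpx2*, its activator on spindle microtubules, was called of 6 genes, at 3.97. The phosphatase subunit *Ppp6c* was at 1.20 (adjusted p = 0.512, limma), with 0.42, 3.50 and -0.31 by preparation. *Pak1* was at 0.19 and *Tacc3*, a spindle protein phosphorylated by Aurora A, at -0.24 (adjusted p = 0.851, limma).

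Genes that oppose or remove these kinases were called in part. Of 8 phosphatases and their regulators only *Mastl*, the kinase that restrains PP2A in mitosis, was called, at 3.78. *Ppp1cc*, a PP1 catalytic subunit, was at 1.58 (0.77, 3.81 and 0.15 by preparation), *Ppp1ca* at 0.19 and *Arpp19*, the substrate of Mastl, at -0.35. Of 4 genes of the anaphase-promoting complex, the ubiquitin-conjugating enzymes *Ube2s* (2.77) and *Ube2c* (2.72) rose, while the activators *Cdc20* (-0.21) and *Fzr1* (-0.24) were not called. *Cdc20* was 1.02 and 0.92 lower in replicating samples of preparations 1 and 2 and 1.32 higher in preparation 3. A second probe of *Ube2s* was not well above background on any replicating array. Second probes of *Tacc3* (0.97, with the groups apart), *Arpp19* (0.80), and *Cdc25c* (-0.65) gave the opposite sign to the brightest probe, and none of them was called. The same was so for second probes of *Cenpa* (-0.31), *Ube2s* (-0.12), *Ppp1cb* (-0.22) and *Ensa* (-0.09). The brightest probes of *Cenpa* (1.80) and *Ube2s* were called higher. Second probes of *Bub1b* (1.18) and *Wee1* (1.02) kept the sign of their called brightest probe but were not called themselves.

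Of 5 transcription factors of the late cell cycle, *Mybl2* (3.43) and *Foxm1* (3.31), which activate many genes of this machinery, and *Lin54* rose, whereas *E2f4*, a factor of quiescence complexes, was at 1.21 and *Lin9* at -0.59, neither of them called, and a second probe of *E2f4* was at -0.64. A second probe of *Foxm1* was at 0.46 and was not called. By preparation the ratio of *E2f4* on its brightest probe was 0.46, 3.88 and -0.72. *Lin54* had no value on the quiescent array of preparation 2. *Plk4*, the Polo kinase of centriole duplication, was higher by 2.30 and *Plk5*, which lacks a working kinase domain in some species, was at -0.48 (adjusted p = 0.584, limma).

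**Figure D3:**
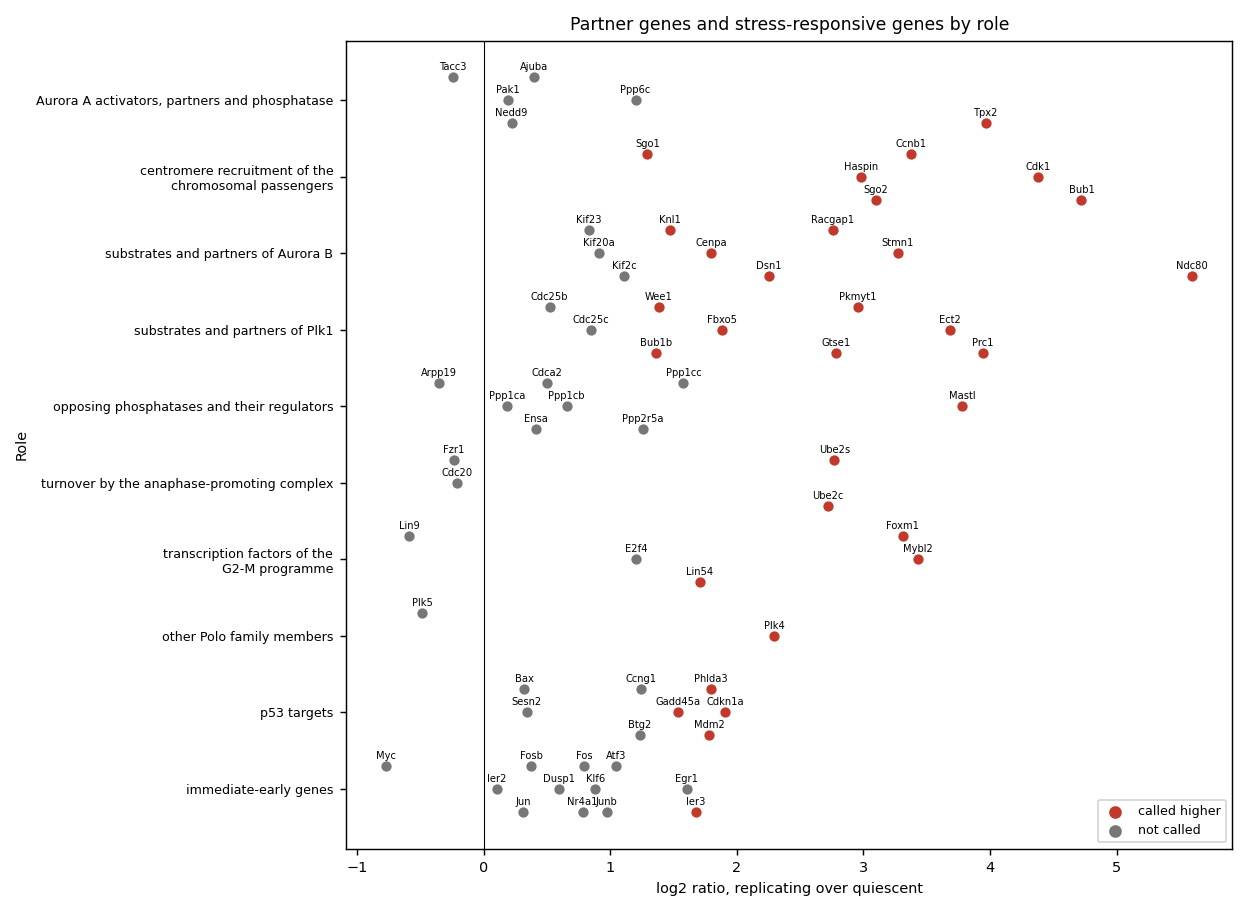
Log2 ratio of replicating over quiescent samples (x axis) for 49 partner genes and 20 stress-responsive genes, grouped by role (y axis), with genes called higher in red. All 6 genes of centromere recruitment are red, against 1 of 6 partners of Aurora A and 1 of 12 immediate-early genes; the value of *Ect2* is the fitted one, although its quiescent values were not well above background.

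Since *Plk2* and *Plk3* respond to stress, 20 other stress-responsive genes were read beside them. Of these, 5 were higher and none was lower, with a median log2 ratio of 0.93 that varied by preparation (0.83, 1.89 and -0.02). Of 8 targets of p53, 4 rose, among them the cell cycle inhibitor *Cdkn1a* (1.91) and *Phlda3* (1.80), an inhibitor of Akt. Of 12 immediate-early genes only *Ier3* was called on its brightest probe (1.68), while *Ier2* was at 0.10 and *Myc* at -0.77. A second probe of *Klf6* was called higher at 1.39 (1.45, 1.49 and 1.24 by preparation), although its brightest probe, at 0.88, was not called. The count of 5 was 3 without preparation 1, 3 without preparation 2 and 12 without preparation 3, and the share of all probes called higher moved with it, to 1.14%, 3.17% and 11.2%. *Plk2* itself was called without any of the 3, at 1.64, 2.16 and 2.47 in that order.

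The genes whose values over the 6 arrays were most like those of *Plk1*, *Aurkb* and *Plk2* were listed by Pearson's r among 15501 named genes. Since the groups were far apart for these kinases, r reflects the difference between groups as well as the spread within them. It is given as a description of 6 arrays. Between *Aurkb* and *Plk1*, both without overlap of the groups, r was 0.827. For *Plk1* the nearest were *Espl1* (r = 0.9986), which encodes separase, *Bard1* (0.9982), *Spc25* (0.9982), a kinetochore subunit, *Tpm4* (0.9979) and the spindle kinesin *Kif15* (0.9979). For *Aurkb* they were *Hist1h2ak* (0.993), *Piezo1* (0.993), *Zfp956* (0.9926), *Fam83d* (0.9921) and *Fbxo5* (0.9921), and for *Plk2* they were *Smc2* (0.9922), *Brd3* (0.9892), *Smoc1* (0.9886), *Rps6ka4* (0.9884) and *Arl5c* (0.9874). Of these neighbours, *Piezo1*, *Zfp956*, *Brd3*, *Smoc1* and *Rps6ka4* were not called and the others were called higher. An r above 0.95 was reached by 273 genes for *Plk1*, 128 for *Plk2* and 42 for *Aurkb*.

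The calls of the 10 genes were the same under most ways of processing the arrays. With scaling to the 75th percentile in place of quantile normalization, the median over all probes moved from -0.07 to -0.71 for the processed signal and to -0.39 after normexp, and 17.2% and 21.4% of all called probes were higher, against 51.5% for the deposited values. The 7 genes were still called higher in both, with *Plk1* at 5.17 and 4.88 and *Plk2* at 2.13 and 1.70. Some settings also brought adjusted p values of these genes under 0.05: 6 genes with the normexp values scaled to the 75th percentile, 5 with cyclic loess, 4 without the preparation as a block, 3 without preparation 2 and 1 with a variance trend. *Plk1* was among them each time.

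**Figure D4:**
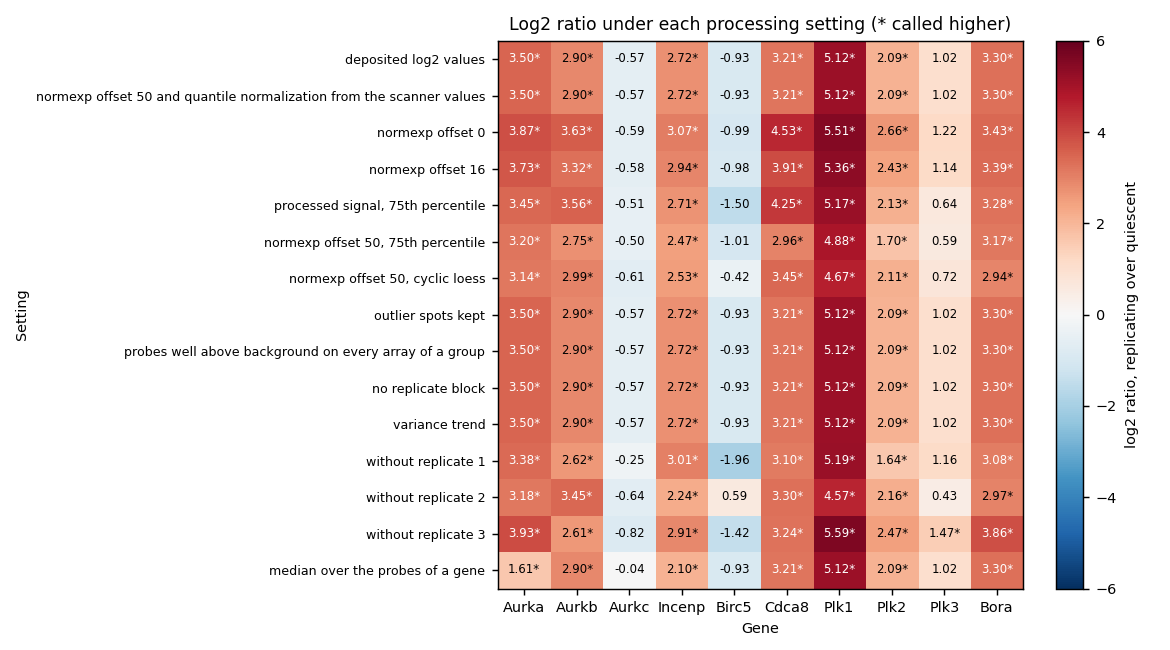
Log2 ratio of replicating over quiescent samples (colour and number) for the 10 genes (x axis) under the deposited values and 14 other settings (y axis), with an asterisk where the gene was called higher. *Plk1*, *Aurka*, *Bora*, *Cdca8*, *Aurkb*, *Incenp* and *Plk2* carry an asterisk in each row, *Plk3* in 1 row at 1.47, and *Birc5* is above 0 in 1 row at 0.59.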

How the data were processed

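Sorted rat β-cells of 3 islet preparations were measured on 6 Agilent arrays of 1 colour. The authors copied the RNA into amplified cDNA and deposited the scanner intensity of each spot from Feature Extraction 10.7.3.1 and log2 values per spot, corrected by normexp and then quantile normalized. The deposited log2 values differed by at most 0.000245 from those recomputed from the deposited intensity with a normexp offset of 50. They were used here without control spots and with outlier spots missing, as the average over the spots of a probe. A probe was counted as well above background on an array when most of its spots were. By preparation the share of such probes was 86.5%, 80.7% and 87.3% on replicating and 96.4%, 98.4% and 85.6% on quiescent arrays. The number of arrays limits the precision.

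All 45598 probes were fitted with limma 3.58.1 (lmFit and eBayes) in R 4.3.3, with data.table (version 1.17.8) to read the files, the islet preparation as a block and Benjamini-Hochberg adjustment over all probes. A call was an unadjusted p of at most 0.05 with a log2 ratio of at least 1 in size. The study's methods name a paired test by islet preparation, and samples with the same replicate number in their labels were taken as a pair. Across probes the r between the deviations of paired arrays was 0.0561, 0.242 and 0.258. The genes, the partner, stress and marker lists and the rule for naming genes (all 10 genes with all probes, up to 2 genes with the highest and lowest ratio per partner role, the 2 highest and lowest stress genes, and the 5 nearest genes by r) were chosen with earlier results of these data known. *Cep192* was not found by that name, and *Haspin*, *Sgo1*, *Sgo2* and *Knl1* appear on the array as *Gsg2*, *Sgol1*, *Sgol2* and *Casc5*. Probe positions are those of the array files on rn4, which do not say which part of a gene a probe covers. Alternatives were other background offsets, scalings and filters, a variance trend, no block, the median of several probes and leaving out each preparation.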

Additional observations from a re-analysis of the deposited data

How the results depend on the processing

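Over 14 other settings, 138 ratios of the 10 genes kept their sign and their side of the call and the other 2 did not. Part of this was fixed in advance. One setting recomputed the deposited values, and the median over probes could change the ratio of only the 3 genes with more than 1 probe. Keeping outlier spots, the filter on signal, no block and a variance trend left these ratios as they were, so only the p could move. *Birc5* ran from -1.96 to 0.59 when each preparation was left out, turning to 0.59 without preparation 2, and *Plk3* was called without preparation 3 (1.47). The number of genes called higher was 7 to 8 and called lower 0 to 0 when each preparation was left out, and their median was 2.60 to 2.82. It was 2.10 where several probes of a gene were replaced by their median. Leaving out each preparation gave 22 to 29 partner genes higher, 3 to 12 stress genes higher and 0 to 1 lower, 518 to 5112 probes higher, 63 to 5633 lower and 0 to 84 with an adjusted p under 0.05. Without the replicate block, 7 of the 10 genes were still called, with 3 stress genes higher, 878 probes lower and 99 with an adjusted p under 0.05; no call of the 10 genes changed. The processed signal scaled to the 75th percentile gave 3 stress genes higher, 662 probes higher and 3193 lower. Normexp values scaled to the 75th percentile gave 1 stress gene lower, 5862 probes lower and 719 with an adjusted p under 0.05. Cyclic loess gave 8 stress genes higher and 204 probes with an adjusted p under 0.05, and a variance trend gave 61. The causes were not tested.

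With 3 preparations, a ratio such as that of *Plk3* lies near the limit of what these arrays resolve. Each preparation pooled 4 rats, so the spread between animals was not measured. Probes that read near background, such as that of *Ect2* in quiescent samples, give a bound.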
